A study of Mus musculus with 36 samples.

Results

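Interleukins are small secreted proteins that immune and other cells use to signal to each other, and each acts through a receptor made of subunits on the target cell. Expression of the interleukins and of their receptor subunits was examined in mouse diaphragm, the main breathing muscle, of control mice and of mdx mice. Members were all probe sets with a single gene symbol made of Il followed by a digit, which gave 55 probe sets for 45 genes, among 10833 probe sets for 8251 genes with a single symbol. The 36 arrays fell into 12 groups of 3, a control and an mdx group at each of 7, 14, 23, 28, 56 and 112 days of age. The mdx mouse carries a mutation of the dystrophin gene and is a model of muscular dystrophy; the labels give no further allele, no strain and no treatment for either genotype. They do not say whether the replicates of a group came from separate animals or whether animals were pooled, so p-values reflect how far these arrays differ, and that spread may be technical.

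The families differ in how they signal. IL-1 and IL-18 bind receptors with a TIR domain and act through the adaptor MyD88 and the transcription factor NF-kB, and the pathway has its own brakes: a receptor antagonist (Il1rn), a decoy receptor (Il1r2) and a binding protein (Il18bp). Most other interleukins act through JAK kinases and STAT factors by way of shared receptor chains, such as the common gamma chain, gp130 (Il6st) and the beta common chain. In dystrophic muscle, fibres degenerate and regenerate in repeated rounds, and macrophages and other leukocytes, which both make and read these signals, enter the tissue.

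Promoter sequences are shown for the 3 genes that were higher in mdx diaphragm at 2 or more ages, Il1rn, Il4ra and Il13ra1. They come from RefSeq on GRCm38.p6, all on the + strand and written 5′ to 3′, and run from 250 bases before a transcription start to 50 bases after it, a window of 300 bases. Il1rn is shown at 2 of its 3 alternative starts, and the window not shown overlaps the downstream one. Capitals mark matches to short patterns of immune transcription factors.
Il1rn, chr2:24336610-24336909: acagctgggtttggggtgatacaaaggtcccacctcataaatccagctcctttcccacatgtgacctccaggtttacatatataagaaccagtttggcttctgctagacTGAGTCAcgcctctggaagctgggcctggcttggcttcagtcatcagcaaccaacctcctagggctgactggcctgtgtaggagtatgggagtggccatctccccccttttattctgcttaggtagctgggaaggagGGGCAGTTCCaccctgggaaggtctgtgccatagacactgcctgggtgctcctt
Il1rn, chr2:24345041-24345340: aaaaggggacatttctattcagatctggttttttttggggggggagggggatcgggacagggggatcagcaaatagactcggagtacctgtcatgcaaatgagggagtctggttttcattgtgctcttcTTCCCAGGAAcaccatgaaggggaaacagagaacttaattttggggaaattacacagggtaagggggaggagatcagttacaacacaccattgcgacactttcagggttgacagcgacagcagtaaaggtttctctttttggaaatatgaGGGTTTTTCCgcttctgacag
Il4ra, chr7:125552021-125552320: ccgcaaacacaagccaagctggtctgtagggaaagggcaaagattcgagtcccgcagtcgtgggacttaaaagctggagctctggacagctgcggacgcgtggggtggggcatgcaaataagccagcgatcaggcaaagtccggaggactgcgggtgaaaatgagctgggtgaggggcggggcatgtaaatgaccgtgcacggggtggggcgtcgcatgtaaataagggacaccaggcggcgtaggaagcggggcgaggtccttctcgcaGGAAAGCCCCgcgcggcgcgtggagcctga
Il13ra1, chrX:36111858-36112157: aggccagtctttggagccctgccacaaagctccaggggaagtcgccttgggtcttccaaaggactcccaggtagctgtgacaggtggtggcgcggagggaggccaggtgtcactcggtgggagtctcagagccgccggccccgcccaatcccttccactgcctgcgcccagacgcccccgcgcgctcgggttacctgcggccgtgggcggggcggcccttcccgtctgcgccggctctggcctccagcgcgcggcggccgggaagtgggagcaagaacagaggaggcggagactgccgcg

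The patterns, searched on both strands, were TTCNNNGAA and TTCNNNNGAA for STAT factors, TGANTCA for AP-1, GGGNNNTTCC for NF-kB and GAGGAAGT for PU.1. The upstream start of Il1rn had an AP-1 match at base -141 and an NF-kB match at base -4 from the start. Its downstream start had a match to the wider STAT spacing, the form known from STAT6, at base -121 and an NF-kB match at base 30. Il4ra had an NF-kB match at base 21, on the reverse strand, and none of the patterns was found in the Il13ra1 window. A window was given for 36 of the 45 genes, and over the 32851 full-length windows searched the patterns were found in 8.3%, 6.95%, 7.81%, 5.56% and 3.2%, in the order named. Of the 48 windows of member genes 7, 13, 10, 9 and 1 held them. Windows of a gene with several starts can overlap, so 1 site can be counted in more than 1 window. The patterns were chosen with the calls known, and the NF-kB pattern was narrowed after a looser one had matched about every other window, so the matches are a description of letters and not evidence of binding.

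Values are the deposited signal of a probe set on a linear scale, and levels of different probe sets cannot be set against each other. The threshold for low signal was percentile 40 of all values, a signal of 374.5. Of the 1980 values of the members, 544 lay above it, or 27.5%. Of the 55 probe sets, 14 had their median above it, 6 were above it on all 36 arrays and 22 on 0 arrays. A probe set was tested where at least 3 arrays lay above the threshold, which left 25 member probe sets for 22 genes and 30 that did not pass. Just inside this rule, with 3 arrays above, lay Il3, Il1a and Il18r1; just outside, with 2 arrays above, lay Il12b and a less bright probe set of Il1r2 (161689_f_at).

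**Figure D1:**
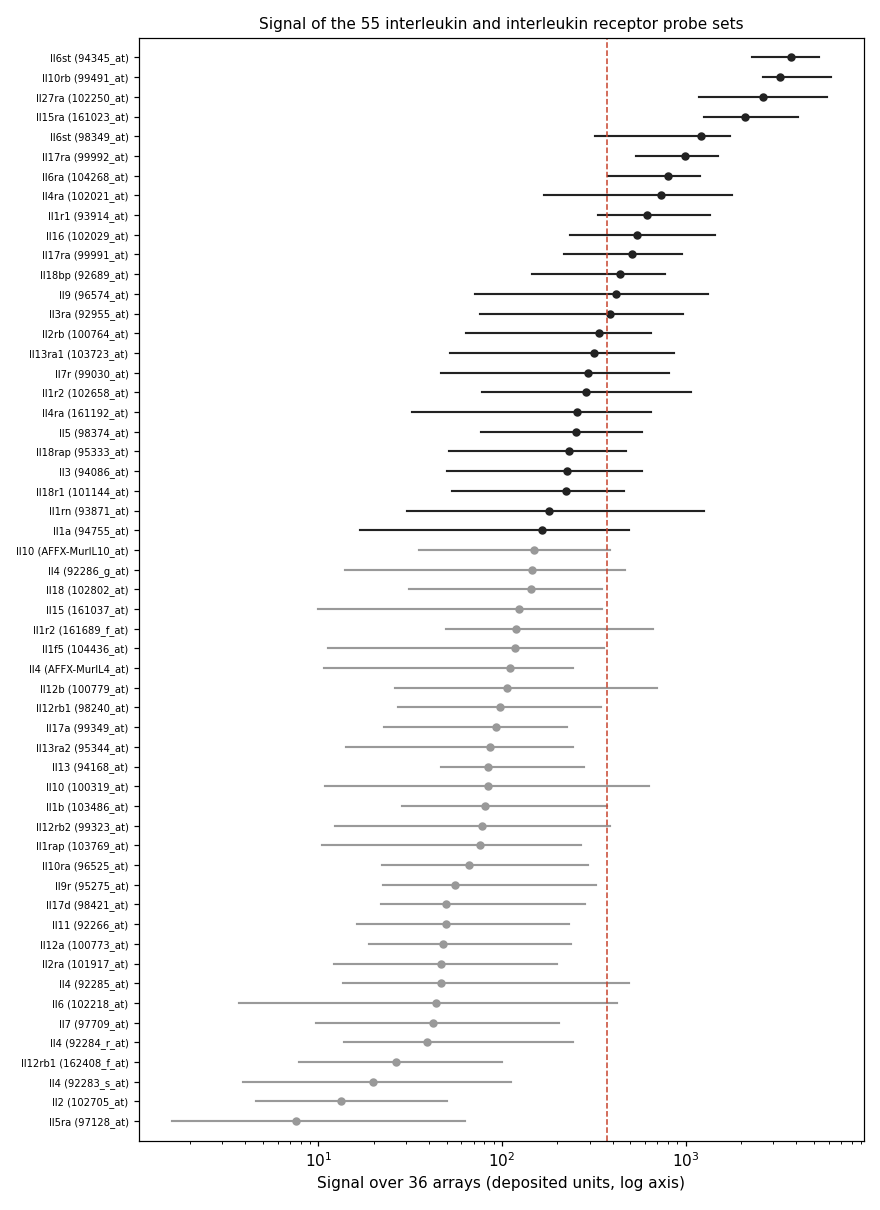
Lowest, median (point) and highest signal of each of the 55 member probe sets over the 36 arrays, on a log axis in deposited units, sorted by median; the dashed line is the threshold of 374.5. The 25 tested probe sets are black and the 30 others grey; the order is one of probe set brightness and does not rank amounts of RNA between genes.

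Receptor subunits made up most of what was read above the threshold. On all 36 arrays this held for 1 probe set each of Il6st (gp130, 2299 to 5310.3), Il10rb (2627 to 6147), Il27ra (1175 to 5892), Il15ra (1254 to 4079.7), Il17ra (539 to 1493) and Il6ra (377 to 1203). Most of the ligands that T cells and myeloid cells make were at or under the threshold. Il2, the T cell growth factor, read 4.6 to 50.2, Il13 46.3 to 281, Il17a 22.8 to 226 and Il1b, the main secreted IL-1 of myeloid cells, 28.6 to 370.5. Il6, a cytokine made by macrophages and contracting muscle, read above the threshold on 1 array, a control array, with a median of 43.8. Of the 10 probe sets of common gamma chain ligands and Il13, 9 did not pass, and neither did any of the 5 of the IL-12 family. Signal that low has no detection call here, and it was not detectable at this depth of signal whether these genes were transcribed.

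Il1rn and Il1a read above the threshold on 13 and 3 mdx arrays and on 0 control arrays, and Il13ra1 on 11 mdx and 1 control array. Members that pass in this way enter the test because they are high in mdx, so counts over the members that passed are a description and support nothing by themselves. With control arrays alone 19 of the 25 would have passed, and with mdx arrays alone 22.

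Each comparison was mdx minus control on log2(signal + 32), which understates the change of a dim probe set, and a rise or a fall is an adjusted p under 0.05 from limma with Benjamini-Hochberg adjustment over all 9291 probe sets tested. In the mean of the 6 ages 6 of the 25 member probe sets were higher in mdx and 0 lower, those of Il1rn, Il4ra, Il13ra1, Il18r1, Il7r and Il17ra. Of all 9291 probe sets 10.4% were higher and 7.41% lower. The median difference was 0.19 over the 25 members and 0.03 over all probe sets tested, on the log2 scale. The members called are 5 receptor subunits and 1 antagonist, and most ligands had not passed the filter; with no filter 2 ligand chains, Il1b and Il12b, were also called.

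By age, 0 members were called at 7 days, where limma called 0.0538% of all probe sets higher and 0.409% lower; at an unadjusted p under 0.05, 5 of the 25 members and 10.7% of all probe sets passed. At 14 days 1 member was higher and 0 lower (all probe sets: 0.161% and 0.0323%). At 23 days 2 were higher and 0 lower (2.68% and 0.807%), and at 28 days 1 was higher and 0 lower (2.42% and 0.538%). At 56 days 5 were higher and 0 lower (9.27% and 7.38%). At 112 days 3 were higher and 1 lower (7.65% and 4.52%). The ages with the most members called, 56 and 112 days, were also those with the most of all probe sets called. At 56 days the median signal of all probe sets was 552 to 606 on control arrays and 669.9 to 723 on mdx arrays. Over all probe sets tested the median log2 difference was then 0.15, and over the members it was 0.49. The part of this brightness in the 56-day calls was not tested. The 23-day count was 0 without mdx replicate 1, 6 without mdx replicate 3, and 1 without mdx replicate 2 or any 1 control array, and with array weights it was 9. The 56-day count was 2 without control replicate 2 and 3 without mdx replicate 1, and the 112-day count was 2 without mdx replicate 2.

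**Figure D2:**
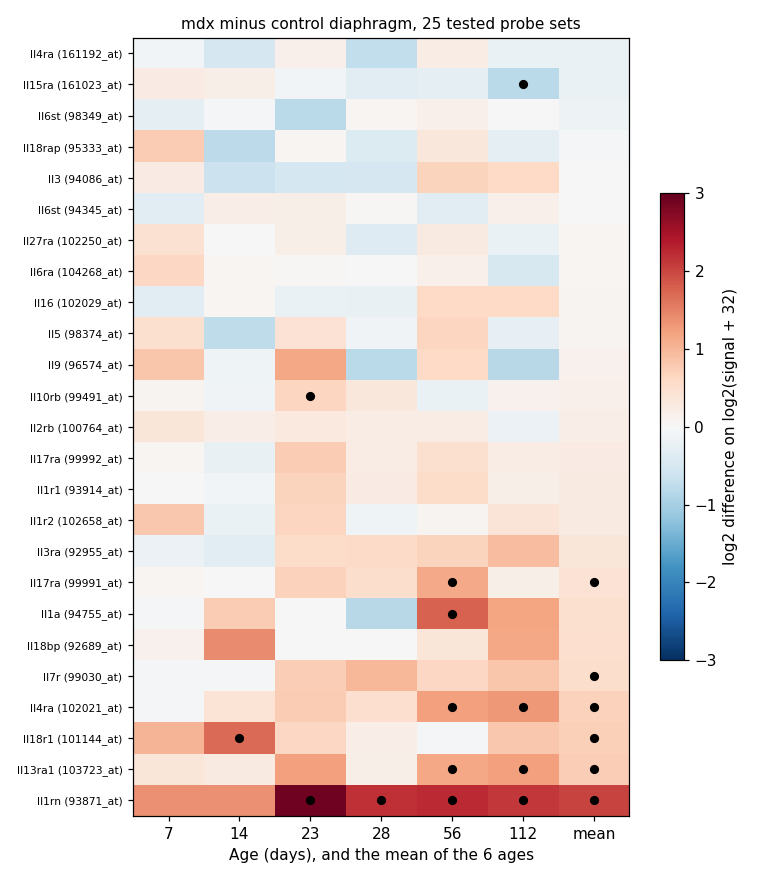
Log2 difference, mdx minus control, of the 25 tested member probe sets (rows, sorted by their mean of the 6 ages) at each age and in the mean; red is higher in mdx, blue lower, and a dot marks an adjusted p under 0.05 in limma. Il1rn is dotted in the last row at 23, 28, 56 and 112 days, and the only blue cell with a dot is Il15ra at 112 days.

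Macrophage markers were higher on the mdx arrays as well. Of 10 macrophage and monocyte markers, all tested, 0 were higher at 7 days, 2 at 14 days, 9 at 23 days, 7 at 28 days, 9 at 56 days and 8 at 112 days. Their summed signal was 12153 to 12978 in control and 12071 to 17873 in mdx arrays at 7 days, and at 14 days the 2 ranges were 14879.7 to 17540.1 and 20279.9 to 26135. From 23 days on the groups lay far apart, with 12154 to 13645 in control and 39847 to 79292 on mdx arrays at 23 days. The 28-day sums were 15223 to 17247 and 48779 to 87328. At 56 days the sums were 17837 to 20523 and 54316 to 66479, and at 112 days 17492 to 18332 and 66823 to 68289. Their part in the differences of the members was not tested. In a piece of muscle, fewer cells of a type and less RNA per cell cannot be told apart. The T cell receptor chains Cd3e, Cd3g and Cd3d read medians of 123, 77.3 and 65.2, and of the 12 T and NK cell markers on the array 4 were tested and 0 were higher at any age. Of 6 fibroblast markers 3 were higher at 56 days and 4 at 112 days. At 23 days 1 of 5 neutrophil markers tested (S100a8, 2.33, adjusted p = 0.0218) and 1 of 5 B cell markers (Jchain, 1.52, 0.0379) were higher. In the mean of the ages 2 of 9 muscle markers (Myh4 and Actn3) and 2 of 5 endothelial markers (Cdh5 and Tek) were lower. So was 1 of the 4 T and NK cell markers tested (Thy1, -0.41, limma, adjusted p = 0.0212). The part of these in the members' differences was not tested either.

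Il1rn, the antagonist that occupies the IL-1 receptor without starting a signal, had the largest mean difference of the 25 tested members. At 7 days its signal was 45.9, 53.6 and 37.3 on control arrays and 376, 58.9 and 184 on mdx arrays. The 14-day values were 179, 96.4 and 79.8 on control arrays and 554, 549 and 118 in mdx, where the groups overlapped. Both early ages had 1 mdx array near the controls. At 23 days controls read 30.3, 31.6 and 136 and mdx 1258, 641 and 294, and at 28 days 279, 56.5 and 92.7 against 363, 728 and 1083. At 56 days the values were 246, 50.9 and 66.6 on control arrays and 547, 683 and 543 in mdx, and at 112 days 149, 171 and 126 against 669, 763 and 799. From 23 days on every mdx array lay above every control array of its age.

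The ratio of mean signals, mdx over control, at the 6 ages in turn was 4.52, 3.44, 11.1, 5.08, 4.87 and 5.0; since all control values were under the threshold, close to background, these ratios are loose. On the log2 scale Il1rn rose by 2.03 ± 0.24 (SE) in the mean of the ages (limma, adjusted p = 1.52e-07). It rose at 23 days by 2.91 ± 0.589 (adjusted p = 0.00245), at 28 days by 2.20 (0.0311), at 56 days by 2.24 (0.00822) and at 112 days by 2.11 (0.0147), all with the same SE. The differences of 1.37 at 7 days (adjusted p = 0.392) and 1.36 at 14 days (0.646) did not pass, and the F test of dependence on age did not pass (adjusted p = 0.622). The call in the mean of the ages was kept in all 44 alternatives in which it was tested. The 23-day call was lost without mdx replicate 1 (2.42, adjusted p = 0.0522) and the 56-day call without control replicate 2 (1.90, 0.0586). Leaving out control replicate 2 (1.82, adjusted p = 0.181), control replicate 3 (2.07, 0.126), mdx replicate 2 (2.14, 0.0963) or mdx replicate 3 (1.86, 0.235) each ended the 28-day call.

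**Figure D3:**
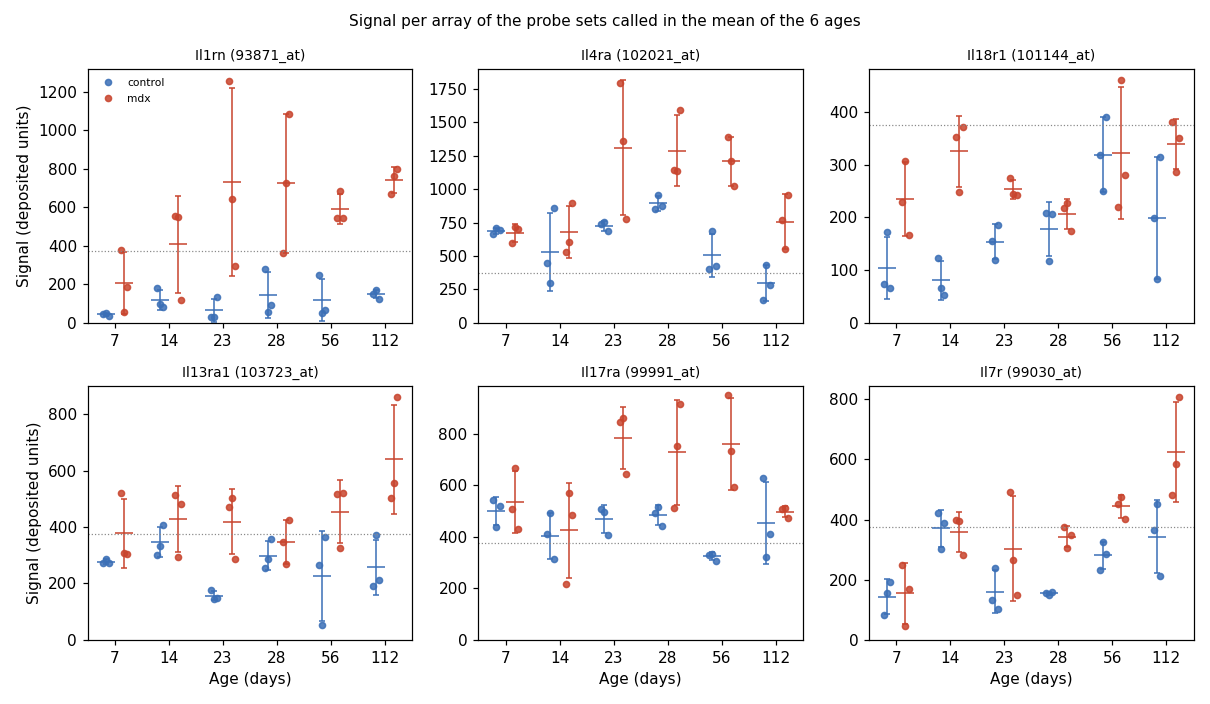
Signal per array (deposited units) against age for the 6 member probe sets called in the mean of the ages; blue is control, red mdx, horizontal lines are means and bars SD of 3 arrays, and the dotted line is the threshold of 374.5. In the Il1rn panel all control arrays lie below the line, and in the Il4ra panel the control points are lower at 112 than at 28 days, and from 23 days on the mdx points lie above them.

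The ligands that Il1rn opposes were dim. Il1a, the cell-associated IL-1, was higher at 56 days alone among the single ages, by 1.78 ± 0.568 (adjusted p = 0.0284). Its signal was then 28.2, 53.1 and 80.2 on control arrays and 329, 284 and 173 in mdx, all under the threshold, with no overlap. At 28 days the order was the reverse, with 258, 219.7 and 214 on control arrays and 62.2, 175 and 133 in mdx, a log2 difference of -0.83 that did not pass (adjusted p = 0.63). At 112 days mdx was again above control without overlap, with 177, 116 and 61.1 against 275, 238 and 381 (1.19, adjusted p = 0.182, not passed). Removal of control replicate 1 (1.55, adjusted p = 0.12), control replicate 2 (1.80, 0.0702), mdx replicate 1 (1.61, 0.108) or mdx replicate 2 (1.71, 0.0758) ended the 56-day call, and the F test did not pass (0.165).

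Il1b did not pass the filter and was read from the fit with no filter on low values, over 12422 probe sets, and its calls were chosen for this account after they had been seen. At 23 days its signal was 29.7, 72.6 and 50.9 on control arrays and 370.5, 368 and 139.8 in mdx, a log2 difference of 1.90 ± 0.437 (adjusted p = 0.0111). At 28 days it was 93.7, 56.4 and 39.9 on control arrays and 39.2, 66 and 54.2 in mdx (-0.14, adjusted p = 0.963). The mean of the ages was 0.59 ± 0.179 (adjusted p = 0.0244). With no filter, 3 of 53 member probe sets were higher at 23 days, when 1.88% of all probe sets were. Of the other members of the family, Il18 read 31.3 to 352 and Il1f5 11.3 to 359, and neither passed the filter. Il18bp, which captures secreted IL-18, read 320.2 ± 58.3 on control arrays and 391 ± 253 on mdx arrays at 7 days (SD, n = 3). Its largest difference was at 14 days, with 176 ± 27.9 and 531 ± 138 (log2 1.41, adjusted p = 0.391), and its mean of the ages was 0.51 ± 0.189 (adjusted p = 0.0605), so it was not called.

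Among the receptors of the IL-1 family, Il18r1, the chain that binds IL-18, was higher in mdx. At 7 days it read 74, 172 and 65.3 on control arrays and 229, 307 and 167 in mdx, and at 14 days 122, 66.6 and 53.3 against 353, 248 and 372. At 23 days the values were 156, 120 and 185 on control arrays and 274, 244 and 242 in mdx. At 14 and 23 days the groups did not overlap. At 28 days they were 209, 118 and 206 against 217, 227 and 174, at 56 days 318, 249 and 391 against 220.4, 461 and 281, and at 112 days 199, 83.8 and 315 against 381, 286 and 350.4. At these 3 ages mdx and control arrays overlapped, and only 3 of the 36 values in all were above the threshold.

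Il18r1 rose in the mean of the ages by 0.72 ± 0.152 (adjusted p = 0.000774), and this call was kept in all 44 alternatives in which it was tested. At 14 days it rose by 1.69 ± 0.372 (adjusted p = 0.0443), the only member called there, and the call was lost without any of 5 of the 6 arrays compared, with values of 1.51 to 1.86; these were control replicates 2 and 3 and all 3 mdx arrays. It was also lost with no filter (adjusted p = 0.0548) and, with a difference of 1.09, without the arrays that held much albumin, which left 1 control and 2 mdx arrays (adjusted p = 0.708). The F test of dependence on age did not pass (adjusted p = 0.178). The partner chain Il18rap did not differ in the mean of the ages (-0.05 ± 0.222, adjusted p = 0.914), with a 95% interval of -0.50 to 0.40. Il1r1, the signalling IL-1 receptor, read above the threshold on 34 arrays and had a mean difference of 0.26 ± 0.121 (adjusted p = 0.154). The decoy Il1r2 had one of 0.26 ± 0.153 (adjusted p = 0.262), and the accessory chain Il1rap, at 10.5 to 268, was not tested.

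Il4ra and Il13ra1 together form the receptor through which both IL-4 and IL-13 signal by way of STAT6, and both were higher in mdx at 56 and 112 days. The main probe set of Il4ra (102021_at) read 666, 713 and 691 on control arrays and 595, 720 and 704 on mdx arrays at 7 days, and 446, 295 and 858 against 528, 605 and 898 at 14 days. The groups overlapped at both ages. At 23 days it read 741, 757 and 684 on control arrays and 1792, 1362 and 779.5 in mdx, and at 28 days 853, 953 and 873 against 1141, 1132 and 1594. At 56 days the values were 403, 686 and 424 on control arrays and 1390, 1211 and 1021 in mdx, and at 112 days 169.8, 436 and 285 against 766, 552 and 957. From 23 days on every mdx array lay above the controls of its age, by 2.39 times in the means at 56 days and 2.55 times at 112 days.

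The log2 difference of Il4ra was 1.24 ± 0.313 at 56 days (adjusted p = 0.00622), 1.31 at 112 days (0.00404) and 0.70 ± 0.128 in the mean of the ages (0.000153). The 56-day call was kept in all 16 alternatives and the call in the mean in all 45, while the 112-day call was lost in a fit on its own 6 arrays (adjusted p = 0.134). Differences of 0.75 at 23 days (adjusted p = 0.243) and 0.50 at 28 days (0.571) did not pass, and nor did the F test of dependence on age (0.176). A dimmer probe set for the same gene (161192_at, 32.5 to 647) did not show the rise: its mean difference was -0.19 ± 0.228 (adjusted p = 0.63), and its difference at 56 days was 0.22 (0.819) and at 112 days -0.20 (0.869). The rise of Il4ra thus rests on 1 of its 2 probe sets.

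Il13ra1, the chain that completes this receptor, read 271, 286 and 273 on control arrays and 519, 309 and 305 on mdx arrays at 7 days, and 301, 333 and 406 against 512, 295 and 481 at 14 days. At 23 days it read 176, 144 and 149.5 on control arrays and 470.1, 502 and 286 in mdx, and at 28 days 254, 286 and 357 against 346, 268 and 424. The groups were apart at 7 and 23 days and overlapped at 14 and 28 days. At 56 days the values were 265, 52.4 and 365 on control arrays and 516, 326 and 522 in mdx, with overlap, and at 112 days 192, 370.1 and 211 against 503, 556 and 861, without. One control array at 56 days, replicate 2, stood well below the other controls.

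It rose by 1.15 ± 0.384 at 56 days (adjusted p = 0.0373), by 1.23 at 112 days (0.0317) and by 0.74 ± 0.157 in the mean of the ages (0.000902), and the call in the mean was kept in all 44 alternatives. Without control replicate 2 the 56-day difference was 0.48 (adjusted p = 0.386), and that call was also lost without mdx replicate 1 (1.05, 0.121) or 3 (1.04, 0.102). At 112 days the removal of control replicate 1 (1.07, adjusted p = 0.117), control replicate 3 (1.12, 0.0863), mdx replicate 2 (1.30, 0.0553) or mdx replicate 3 (1.00, 0.15) ended it. The 23-day difference was as large (1.23) and did not pass (adjusted p = 0.0761). The decoy Il13ra2 read 14.1 to 242, and the ligands Il4 and Il13 did not pass the filter: the highest signal was 489 over the probe sets of Il4 and 281 for Il13.

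Il7r, the receptor chain for IL-7, a survival signal of lymphocytes, read 81.2, 157 and 193 on control arrays and 249.9, 46.3 and 168 on mdx arrays at 7 days, and 422, 302 and 388 against 399, 394 and 283 at 14 days. At 23 days it read 134, 240.4 and 104 on control arrays and 493, 266 and 150.3 in mdx. The groups overlapped at these 3 ages. At 28 days the values were 156, 150.2 and 159.7 against 374, 307 and 347, at 56 days 233, 324 and 286 against 453, 476 and 403, and at 112 days 366, 451 and 213 against 481, 586 and 807. At these later ages all mdx arrays lay above the controls, yet no single age was called; the adjusted p came down to 0.176 at 112 days. Il7r rose in the mean of the ages by 0.52 ± 0.16 (adjusted p = 0.0222). That call was lost without the arrays that held much albumin (0.44, adjusted p = 0.166). Its ligand Il7 read 9.7 to 204.

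Il15ra, which holds IL-15 on the surface of the cell that makes it, was the only member called lower at a single age. At 112 days it read 2937, 4010 and 3169 on control arrays and 2412, 1518 and 1839 in mdx, with no overlap, a log2 difference of -0.81 ± 0.215 (adjusted p = 0.00964). Removal of control replicate 2 (-0.68, adjusted p = 0.0677) or mdx replicate 2 (-0.66, 0.0766) ended this call, and without the arrays that held much albumin, with 1 control and 2 mdx arrays left, the difference was -0.47 (0.444). In the mean of the ages it was -0.19 ± 0.0877 (adjusted p = 0.154). Il2rb, the chain that IL-2 and IL-15 share, had a mean difference of 0.19 ± 0.18 (adjusted p = 0.536), and Il2ra (12.2 to 199) and Il9r (22.5 to 325) did not pass the filter.

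Il17ra, the receptor chain that most IL-17 cytokines share, was read by 2 probe sets. The one called (99991_at) read 542, 438 and 521 on control arrays and 506, 667 and 429 on mdx arrays at 7 days, and 411, 491 and 312 against 218, 571 and 486 at 14 days. At 23 days it read 507, 495 and 406 on control arrays and 844, 859 and 643 in mdx. The last of these ages was the first without overlap. At 28 days the values were 491, 516 and 441 against 512, 752 and 917, at 56 days 331, 334 and 306 against 949.9, 732 and 594, and at 112 days 629.5, 322 and 411 against 508, 513 and 472. The 56-day arrays stood 2.34 times apart in their means, and at 28 and 112 days the groups overlapped.

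At 56 days Il17ra rose by 1.13 ± 0.277 (adjusted p = 0.0049), and this call was kept in all 15 alternatives. In the mean of the ages it rose by 0.43 ± 0.113 (adjusted p = 0.00655), and this was lost without the arrays that held much albumin (0.33, 0.165). The other probe set (99992_at) had differences in the same direction that did not pass, 0.49 at 56 days (adjusted p = 0.135), 0.75 at 23 days (0.0667) and 0.25 ± 0.093 in the mean of the ages (0.056). At 56 days it read 862, 930.1 and 999.5 on control arrays and 1493, 1306 and 1171 in mdx, without overlap. The ligands Il17a and Il17d read at most 226 and 282.

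Of the IL-10 family, Il10rb, a chain shared by the receptors of IL-10, IL-22 and the lambda interferons, was called at 23 days. It read 2940.5, 2918 and 2967 on control arrays and 6147, 4428 and 3555 in mdx, a rise of 0.64 ± 0.173 (adjusted p = 0.032). Without mdx replicate 1 the difference was 0.43 (adjusted p = 0.399), and the call was also lost without mdx replicate 2 (0.66, 0.0709) or control replicate 1 (0.64, 0.101), 2 (0.63, 0.1) or 3 (0.64, 0.0889). At 28 days the groups did not overlap either, with 3329.5, 3099 and 3088 against 3808, 4089.5 and 4135, a difference of 0.34 that did not pass (0.431). Il10ra, the chain that binds IL-10 itself, read 22.3 to 294, and each of the 2 Il10 probe sets was above the threshold on 1 array.

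Of the members, the receptor chains of gp130 cytokines (Il6st, Il6ra and Il27ra) were all tested and gave 0 calls between mdx and control. Il6st itself, on its main probe set, had a mean difference of -0.01 ± 0.0693 (adjusted p = 0.938; 95% interval -0.15 to 0.13). That of Il6ra, the IL-6 binding chain, was 0.07 ± 0.101 (0.721; -0.14 to 0.27), and that of Il27ra was 0.05 ± 0.0911 (0.753; -0.13 to 0.24). These narrow intervals bound the mean difference of these 3 probe sets, but not the differences at single ages. They do not cover the second, dimmer probe set of Il6st (98349_at). At 23 days that one read 1462, 1436 and 766 on control arrays and 321, 477 and 1735 in mdx, with overlap. Of the beta common group, Il3ra had a mean difference of 0.37 ± 0.182 (adjusted p = 0.17), Il3 of -0.02 and Il5 of 0.08, and Il5ra, at 1.6 to 62.9, was not tested. Il16, a chemoattractant that is no relative of the others, had one of 0.08 ± 0.111 (0.667).

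The IL-12 family had no tested member. In the fit with no filter Il12b, the chain shared by IL-12 and IL-23, was higher at 56 days by 1.65 ± 0.543 (adjusted p = 0.0439), with 71.1, 67.7 and 102 on control arrays and 109.8, 699 and 377 in mdx. With no filter 6 members were higher at 56 days, when 6.63% of all probe sets were. In the mean of the ages it was higher by 0.66 ± 0.222 (adjusted p = 0.0432) and the receptor chain Il12rb2 by 0.68 ± 0.231 (0.0471). With Il1b these brought the members higher in the mean to 9 of 53, against 7.89% of all probe sets. Il12b and Il12rb2 were dim, with median signals of 106 and 77.9, and were named here after their calls had been seen. Calls made with no filter were not rerun under the other alternatives.

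**Figure D4:**
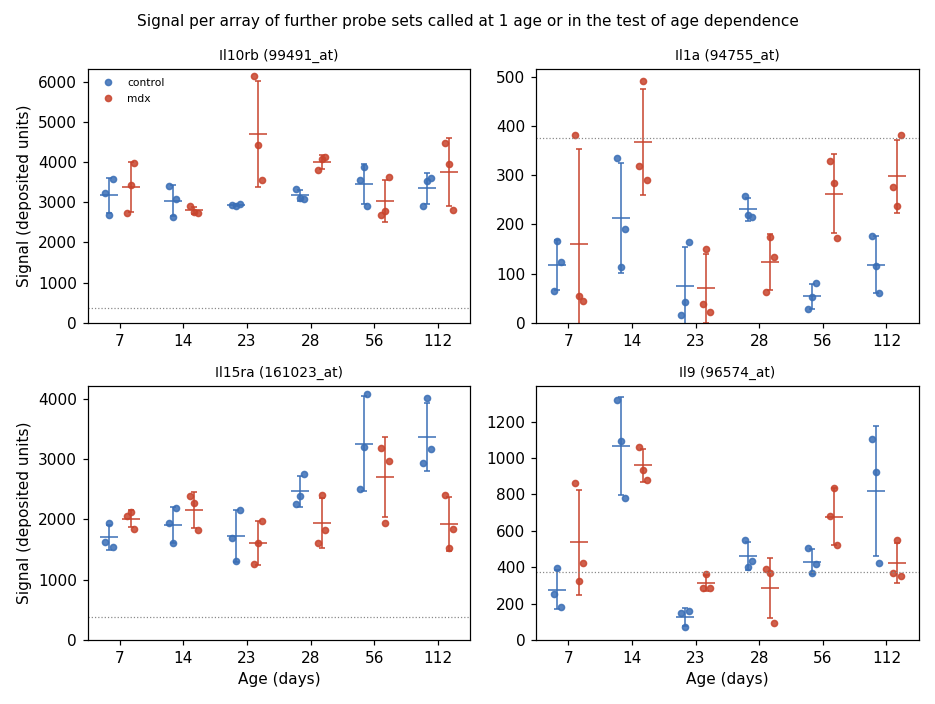
Signal per array (deposited units) against age for Il10rb, Il1a, Il15ra and Il9; blue is control, red mdx, horizontal lines are means and bars SD of 3 arrays (cut off at 0), and the dotted line is the threshold of 374.5. For Il9 the mdx arrays lie above the controls at 23 and 56 days and below them at 28 days.

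Il9, a cytokine of T cells and mast cells, was the only member whose difference depended on age (F test, F = 4.7, adjusted p = 0.0362; 8.93% of all probe sets passed). At 23 days it read 149.6, 71.1 and 161 on control arrays and 286, 364 and 285 in mdx, at 28 days 547, 402 and 433 against 389, 369.8 and 92.7, and at 56 days 503, 370.4 and 418 against 679, 835 and 519.9. The mdx arrays were thus all higher, then all lower, then all higher. At 7 days the values were 250, 395 and 183 on control arrays and 864, 324 and 424 in mdx, at 14 days 1318, 1096 and 781 against 1062, 934 and 880.4, and at 112 days 1107, 925 and 420.5 against 366, 548 and 349.5. These 3 ages overlapped. The log2 differences, from 7 to 112 days, were 0.83, -0.12, 1.15, -0.82, 0.60 and -0.83, and none was called. The 2 genotypes shared the larger pattern of high values at 14 days and low ones at 23 days. The median signal of all probe sets on an array was 663 to 688 at 14 days and 451 to 515 at 23 days, so the arrays of these ages also differed as a whole, and the part of this in Il9 was not tested. The F test was lost without any 1 of 11 arrays, with F values of 4.05 to 4.44.

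Control diaphragm itself changed with age. Between 7 and 112 days 7 of the 25 member probe sets rose and 1 fell, when 21.4% of all probe sets rose and 20.3% fell; the median difference was 0.31 over the members and 0.10 over all. The Gapdh 3′/5′ ratio, which can reflect the quality of RNA or labelling, did not overlap between these groups (7 days: 0.147, 0.0555, 0.0357; 112 days: 0.93, 0.518, 0.81). Its part in these differences was tested only as a covariate, with the values given below. The fall was in Il4ra (102021_at), from 666, 713 and 691 to 169.8, 436 and 285, a log2 difference of -1.22 ± 0.313 (adjusted p = 0.00265). Its mdx arrays of 7 and 112 days overlapped, with means of 673 ± 68.1 and 758 ± 202 (SD, n = 3). The genotype difference at 112 days was thus taken against a control level that had fallen. The second Il4ra probe set differed by 0.31 (adjusted p = 0.669).

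All rises with age but that of Il9 were in receptor chains, which were also most of the member probe sets tested. Il27ra, the receptor chain of IL-27, rose from 1893, 1986 and 1646 to 4193, 5109.5 and 2562 (1.04 ± 0.223, adjusted p = 0.000481). Il15ra rose from 1632, 1934 and 1546 to 2937, 4010 and 3169 (0.97 ± 0.215, 0.00069), and Il6ra from 460.3, 689.8 and 377 to 1193, 1006 and 862 (0.99 ± 0.248, 0.00212). In all 3 the oldest controls lay above the youngest without overlap. The decoy Il1r2 rose by 1.38 ± 0.375 (adjusted p = 0.00414), Il18rap by 1.77 ± 0.543 (0.01), Il9 by 1.42 ± 0.394 (0.00497) and Il7r by 1.10 ± 0.392 (0.0254). Il18rap was lost without the 7-day control replicate 1 (1.50, adjusted p = 0.0569). Il7r was lost without that array (0.81, 0.147) or the 112-day control replicate 1 (1.03, 0.0724) or 2 (0.89, 0.115). With no filter Il15, the ligand of Il15ra, rose too, by 1.63 ± 0.434 (0.0044), from 70.8 ± 37.5 to 283 ± 85.3 (SD, n = 3), which made 8 members higher against 17.1% of all probe sets. At 112 days Il15 was 111 ± 75 in mdx (log2 -1.22, adjusted p = 0.0768 with no filter), a difference from control in the direction of Il15ra that did not pass.

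**Figure D5:**
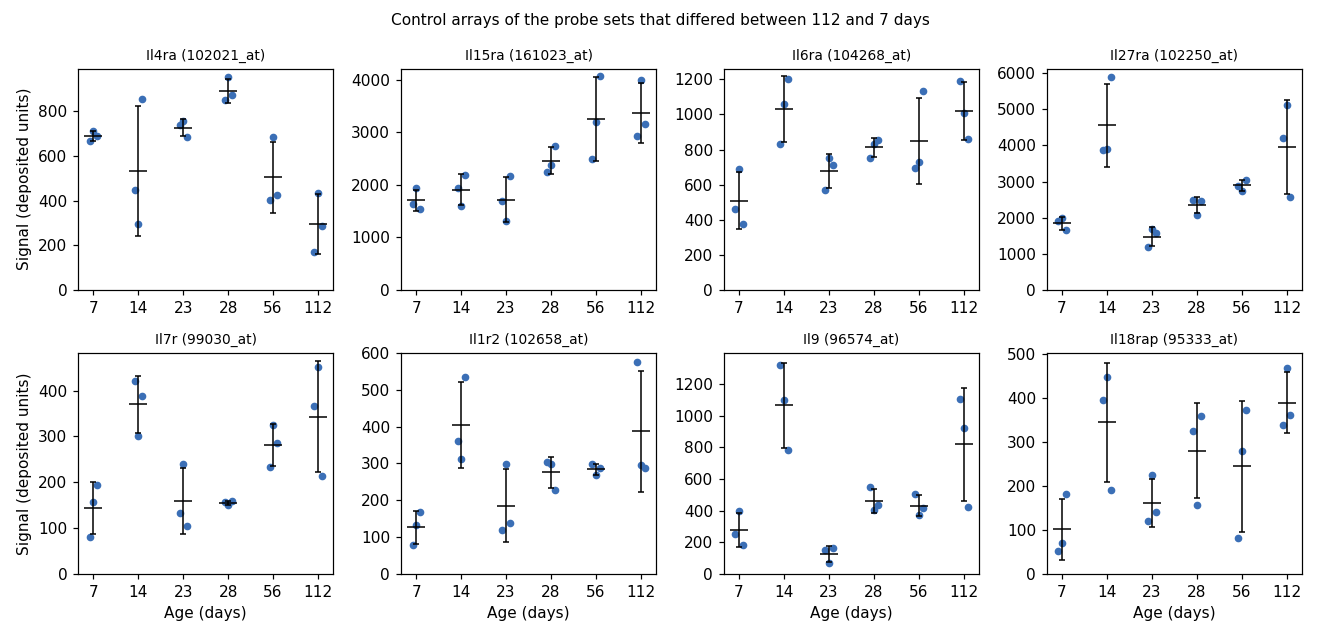
Signal per control array (deposited units) against age for the 8 member probe sets that differed between 112 and 7 days; horizontal lines are means and bars SD of 3 arrays. Il4ra ends below its 7-day level and the other 7 above. In between, the means of these 7 were higher at 14 than at 23 days, least so for Il15ra, as was the median signal of all probe sets.

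The genes that pass these signals on were read from a list of 52 partners of interleukin receptors, of which 39 were on the array and 37 were tested. In the mean of the ages 9 were higher in mdx and 1 lower, where 10.4% and 7.41% of all probe sets were, with a median difference of 0.12 against 0.03 over all probe sets. Ptpn6, the phosphatase SHP-1 of blood cells, rose by 1.13 ± 0.201 (adjusted p = 0.000101) and Socs3, the feedback inhibitor of gp130 signalling, by 0.65 ± 0.0989 (1.25e-05). Nfkb2, a subunit of NF-kB, rose by 0.33 ± 0.0763 (0.00182), and the inflammatory caspases Casp1, which cuts the IL-1b and IL-18 precursors, and Casp4 by 0.63 ± 0.15 (0.00274) and 0.46 ± 0.111 (0.00325). Ebi3, a subunit shared by IL-27 and IL-35, rose by 0.57 ± 0.158 (0.0094) and Csf2ra, which binds GM-CSF, by 0.55 ± 0.159 (0.0132). Csf2rb2 and Stat6, the factor that the IL-4 receptor activates, rose as well, Stat6 by 0.17 ± 0.0558 (0.0286). Lifr, the receptor chain for LIF, fell by 0.47 (SE 0.0902, adjusted p = 0.000295). Ptpn6 and Casp1 were dim, with median signals of 157 and 204, and read above the threshold for low signal on 5 and 6 arrays. The other partners called in the mean read above it on 18 to 36 arrays. Like the members, dim partners can enter the test because they are high in mdx, so counts over the partners tested are a description.

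By age the partners gave 0 higher and 0 lower at 7 days (all probe sets: 0.0538% and 0.409%), 1 higher and 0 lower at 14 days (0.161% and 0.0323%) and 5 higher and 0 lower at 23 days (2.68% and 0.807%). They gave 1 higher and 0 lower at 28 days (2.42% and 0.538%), 3 higher and 1 lower at 56 days (9.27% and 7.38%) and 2 higher and 1 lower at 112 days (7.65% and 4.52%), and at these 3 ages the share higher was near or below that of all probe sets. Socs3 was higher at 23 days by 1.05 ± 0.242 (adjusted p = 0.00865) and at 112 days by 1.36 (0.000196), and its difference depended on age (F test, adjusted p = 0.0111). Ptpn6 was higher at 23 days by 1.81 ± 0.492 (0.032) and at 28 days by 2.32 (0.00378). Socs1, another feedback inhibitor, was higher at 56 days by 2.17 ± 0.7 (0.0308), where Nfkb2 and Relb also rose, by 0.74 ± 0.187 (0.0064) and 0.60 ± 0.202 (0.0389). Csf2ra, Csf2rb2 and Ptpn6 are also genes of myeloid cells, and the macrophage sums given above were higher in mdx from 14 days on. Csf2rb2 differed by 1.26 at 23 days and 0.31 at 28 days, and Ptpn6 by 1.07 at 112 days. Csf2ra was called at no single age. The part of myeloid cells in these differences was not tested.

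Over the whole table, pairs of arrays within a group had correlations of 0.884 to 0.975. Albumin, a liver product, read above 10000 on 9 of the 36 arrays, 2 at 7 days, 3 at 14 days, 1 at 56 days and 3 at 112 days, and some calls were lost when they were left out. Beyond those given above, these were Il1rn at 112 days (2.08, adjusted p = 0.128, with 1 control and 2 mdx arrays left there), Il13ra1 at 112 days (1.62, 0.124), Il1a at 56 days (1.55, 0.0773), Il10rb at 23 days (0.64, 0.0511) and the F test of Il9 (0.0513). In ageing controls they were Il15ra (0.71, adjusted p = 0.101), Il18rap (2.00, 0.0571) and Il7r (1.44, 0.0722). The Gapdh control probe sets for the 3′ and 5′ ends stood in a ratio of 0.0357 to 0.971. The ratio was higher on all mdx than on all control arrays at 7 days (0.32 to 0.83 against 0.0357 to 0.147) and at 23 days (0.431 to 0.493 against 0.35 to 0.361). With this ratio as a covariate the calls of Il1rn at 28 days (2.07, adjusted p = 0.0602) and Il13ra1 at 56 days (1.08, 0.0508) were lost, and in ageing controls those of Il4ra (-1.11, 0.0558), Il9 (0.62, 0.364) and Il7r (0.99, 0.173). Quantile normalization ended those of Il13ra1 (0.81, adjusted p = 0.132) and Il1a (1.41, 0.0746) at 56 days, Il10rb at 23 days (0.57, 0.101), Il7r in ageing controls (0.79, 0.0692) and the F test of Il9 (0.057), and array weights that of Il13ra1 at 112 days (1.09, 0.129). A fit on only the arrays compared, which ended the 112-day call of Il4ra, also ended others. These were Il18r1 at 14 days, Il10rb at 23 days, Il1rn at 28 days and Il13ra1 at 56 and 112 days. Il15ra at 112 days and Il7r in ageing controls were lost in it too.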

How the data were processed

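Total RNA of the diaphragm was the material measured, on Affymetrix arrays of 1 colour. The deposited values are intensities per probe set on a linear scale, already brought by the authors to a common level, as the values show (mean between percentiles 2 and 98 of 1499.2 to 1499.7 on every array); the sources used here do not name the software. Gene symbols came from the platform annotation. The 66 control probe sets of the array maker, 2 of which carry member symbols (Il4 and Il10), were not tested, so 53 of the 55 members could be. Of the other 12422 probe sets, 9291 had at least 3 arrays above percentile 40 of all values. limma 3.58.1 in R 4.3.3 was fitted to log2(value + 32) with 12 group means over all 36 arrays (24 residual degrees of freedom, median prior 6.14, variance trend). The fit was also run on simulated arrays with independent errors. These held no shifts of whole arrays, so that run says nothing about calls that depend on such shifts. For arrays, their number limits the precision.

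Per-array values are given for members called at 2 or more ages or in the mean of the ages; further calls are named with their test. The members, the lists and the promoter patterns were chosen with earlier results of these data known. Alternatives were a pseudocount of 16 or 64, no filter or one at percentile 60, quantile normalization, array weights, a replicate block, own arrays alone, the Gapdh ratio as a covariate, arrays with albumin above 10000 left out, and each array left out in turn. Same-numbered control and mdx arrays did not deviate together (correlation -0.225 to 0.147 over 18 pairs), so the numbers were not used as pairs.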

Additional observations from a re-analysis of the deposited data

Results flagged for a closer look

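The mdx minus control difference of Il9 (96574_at) was not the same at all ages by a test of the difference itself (limma F test, adjusted p = 0.0362). It ran from 1.15 at 23 days to -0.82 at 28 days and -0.83 at 112 days on the log2 scale, and 0 single ages were called.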

How the results depend on the processing

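Counts of member calls moved with several settings. For the 28 named member calls 634 alternative values were computed, of which 546 stayed past the threshold, 88 did not and 0 changed sign. Members called at 14 days, 1 as reported, became 0 with no filter, with the filter at percentile 60, with the replicate block, with only the arrays compared and without the albumin-rich arrays. At 23 days the 2 became 1 with the percentile 60 filter, quantile normalization, the replicate block, only the arrays compared or without the albumin-rich arrays, and 9 with array weights. At 28 days the 1 became 0 with the percentile 60 filter, the replicate block, only the arrays compared or the Gapdh covariate. At 56 days the 5 became 1 with the percentile 60 filter and 3 with quantile normalization. At 112 days the 4 became 2 with the percentile 60 filter and 1 with only the arrays compared or without the albumin-rich arrays. The 6 called in the mean of the ages became 2 with the percentile 60 filter, under which fewer members are tested. The 1 of the F test became 0 with quantile normalization, the replicate block or without the albumin-rich arrays, and 2 with array weights or the Gapdh covariate. The 8 called in ageing controls became 5 with the percentile 60 filter, without the albumin-rich arrays or with the Gapdh covariate, and 2 with the replicate block. With each array left out in turn the counts ran from 0 to 1 at 14 days, 0 to 6 at 23 days, 0 to 1 at 28 days, 2 to 5 at 56 days, 2 to 5 at 112 days, 6 to 8 in the mean, 0 to 3 in the F test and 7 to 9 in ageing controls. At 7 days the count stayed at 0 in the alternatives run. The replicate numbers are shared by the labels alone, and the cause of these moves was not tested. Members under a signal of 374.5 on most arrays are read close to background, and for them a missing call says little.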
